A study of Rattus norvegicus with 2 samples.

Results

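Enteroendocrine cells are the scattered hormone-secreting cells of the gut epithelium. In fetal rat colon they made up 68 of the 18617 cell barcodes of 2 single-cell libraries. The series profiled colon of wild-type (WT) rat fetuses at stage E19.5 with droplet-based 10x single-cell RNA sequencing. One library came from the maternal obesity group, whose dams were obese during pregnancy, and the other from the control group. Each group has 1 library and the labels do not say how many fetuses or litters went into it. The comparison asks what maternal obesity changes in the offspring's gut epithelium. With 1 library a group there is no test between the groups, and every interval below covers counting error only.

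An endocrine barcode was one that met 5 conditions. It had at least 500 genes, at most 20% mitochondrial UMIs (unique molecular identifiers, each a counted RNA molecule), UMIs in at least 4 of 7 epithelial genes (Epcam, Cldn7, Cldn4, Cldn3, Elf3, Vil1 and Lgals4), and at most 3 collagen UMIs of Col1a1 and Col3a1. It also had at least 2 UMIs in each of 3 or more of 6 endocrine genes: Chga, Chgb, Pyy, Gcg, Sst and Scg2. The maternal obesity library held 24 such barcodes and the control library 44. They were 1.5% of the 1597 epithelial barcodes in maternal obesity (95% Clopper-Pearson interval 0.965 to 2.23%) and 1.35% of 3258 in control (0.983 to 1.81%), so the intervals overlap. As a share of all barcodes that passed the quality filter they were 0.332% in maternal obesity and 0.640% in control, but epithelial barcodes were 22.1% of the maternal obesity library and 47.4% of the control library. The barcodes were chosen by their UMIs of these 6 genes, whose levels are given as a description.

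Enteroendocrine cells arise from epithelial progenitors through the transcription factor Neurog3 and store peptides and amines in dense-core granules held together by chromogranins and secretogranins. In the colon the main kinds are enterochromaffin cells, which make serotonin with the enzyme encoded by Tph1, and L cells, which make the proglucagon peptides (Gcg) and peptide YY (Pyy). D cells, which make somatostatin (Sst), are rarer. These cells signal to nerves, blood vessels and the pancreas after sensing the contents of the lumen.

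The 4 genes that set apart the main kinds of endocrine barcode here were Gcg, Pyy, Chgb and Tph1, and the 250 bases before each gene's start are shown because these genes carry the division described below. The sequences are RefSeq's on the GRCr8 assembly, each read 5′ to 3′ on the gene's own strand. Capitals mark the E-box letters CANNTG, the core bound by Neurog3, Neurod1 and other basic helix-loop-helix factors; the letters read the same on both strands.
Gcg: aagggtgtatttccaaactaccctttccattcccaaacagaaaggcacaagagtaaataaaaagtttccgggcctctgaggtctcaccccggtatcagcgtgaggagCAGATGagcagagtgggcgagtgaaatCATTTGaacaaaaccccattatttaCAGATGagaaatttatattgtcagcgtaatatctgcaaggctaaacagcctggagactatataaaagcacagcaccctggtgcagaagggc
Pyy: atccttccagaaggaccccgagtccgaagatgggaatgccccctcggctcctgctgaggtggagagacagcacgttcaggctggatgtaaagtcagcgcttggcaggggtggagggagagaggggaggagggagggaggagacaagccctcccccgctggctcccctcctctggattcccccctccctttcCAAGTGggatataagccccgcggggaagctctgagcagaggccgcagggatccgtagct
Chgb: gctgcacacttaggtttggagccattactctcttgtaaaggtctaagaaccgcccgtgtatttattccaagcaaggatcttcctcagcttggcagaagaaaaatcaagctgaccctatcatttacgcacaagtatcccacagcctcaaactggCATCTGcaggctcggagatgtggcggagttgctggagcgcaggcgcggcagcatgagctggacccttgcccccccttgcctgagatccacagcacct
Tph1: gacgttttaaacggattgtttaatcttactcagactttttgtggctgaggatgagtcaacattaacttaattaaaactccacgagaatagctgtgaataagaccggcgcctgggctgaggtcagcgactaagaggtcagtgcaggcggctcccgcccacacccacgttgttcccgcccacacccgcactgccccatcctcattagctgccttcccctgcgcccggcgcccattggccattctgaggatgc
Gcg lies at chr3:67531534-67531783 on the minus strand and holds 3 such runs, at 143, 116 and 91 bases before the start. Pyy lies at chr10:87562471-87562720 on the minus strand and holds 1, at 59 bases before the start. Chgb lies at chr3:140496462-140496711 on the plus strand and holds 1, at 97 bases, and Tph1 at chr1:106314629-106314878 on the minus strand holds 0. Of 33469 RefSeq rat promoters of this length, 65.5% hold at least 1 CANNTG, so its presence does not mark these genes out.

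The barcodes carried an endocrine gene that the rule did not use. Resp18, which encodes a dense-core vesicle protein, had UMIs in 22 of the 24 maternal obesity barcodes and in all 44 control barcodes. Its summed level was 1066 CPM (UMIs per 1000000 of the summed total) in endocrine and 0.833 CPM in other epithelial barcodes of maternal obesity, and 1724 and 1.36 CPM in control. Endocrine barcodes had a median of 24754 UMIs in maternal obesity and 14319 in control, close to the other epithelial barcodes (21694 and 14528.5). Glial (Sox10, S100b and Fabp7 among them) and endothelial (Cdh5, Kdr) markers had no UMI in any endocrine barcode, and of 5 fibroblast markers only 1 was seen in maternal obesity and 2 in control. Of 7 tuft cell markers, 1 had a UMI in the maternal obesity barcodes and 2 in the control barcodes. Goblet markers were common, with UMIs in 22 of 24 and 44 of 44 barcodes. They summed to 1660 CPM in maternal obesity and 3035 CPM in control, against 3121 and 5965 CPM in other epithelium. Absorptive markers had UMIs in 17 and 28 barcodes, at 537 and 477 CPM, against 245 and 113 CPM. No endocrine barcode sequence was a member in both libraries, although 130 barcode sequences occurred in both.

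Some members stood apart and bear on the comparisons below. In one group, 10 of 24 barcodes in maternal obesity and 9 of 44 in control had under 1% of their UMIs in the 6 endocrine genes, with medians of 0.0977% and 0.574% and total UMIs of 2024 to 90592 and 12447 to 79993. Resp18 was nevertheless seen in 8 of those 10 and in all 9, at medians of 3.5 and 6 UMIs. In another, 5 maternal obesity barcodes and 1 control barcode had at least 2 UMIs in each of 2 or more enteric neuron markers. Ret and Prph are among these markers. Of the 5, 4 held 102 to 234 neuron-marker UMIs, and the control one held 61. The remaining maternal obesity one held 9, beside 3666 Pyy and 2664 Gcg UMIs. The summed level of the 9 neuron markers was 946 CPM in maternal obesity and 125 CPM in control, against 26.1 and 41.1 CPM in other epithelium. Finally, 1 barcode in each library was rich in haemoglobin UMIs, at 50% of its total in maternal obesity and 47.0% in control. Results are given for all 24 and 44 barcodes. The main ones are also given for the 14 and 35 barcodes with 1% or more of UMIs in the 6 genes, a limit set after seeing the data, or for the 19 and 43 without neuron markers. These 14 and 35 were 0.877% (0.480 to 1.47%) and 1.07% (0.749 to 1.49%) of epithelial barcodes, and 58.3% and 79.5% of the members.

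The number of rule genes met shows how the rule separated them. Among epithelial barcodes just outside it, with 2 of the 6 genes, 4 in maternal obesity held 4 to 83 UMIs of the 6 genes (median 10.5) and 11 in control held 4 to 162 (median 13). Just inside, with 3 of the 6, 15 maternal obesity barcodes held 9 to 1567 (median 120) and 21 control barcodes 37 to 2014 (median 454). With 4 or 5 genes, 9 maternal obesity barcodes held 15 to 6472 (median 2026) and 23 control barcodes 117 to 2348 (median 651).

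Endocrine barcodes fell into a Chgb-led and a Pyy/Gcg-led kind in both libraries. A barcode was assigned to the kind whose gene had more UMIs: Chgb, the sum of Pyy and Gcg, or Sst. Chgb encodes chromogranin B, a granule matrix protein. Chgb led in 11 of 24 maternal obesity barcodes (45.8%, 25.6 to 67.2%) and in 19 of 44 control barcodes (43.2%, 28.3 to 59.0%). Pyy and Gcg led in 12 barcodes (50%) in maternal obesity and in 24 (54.5%) in control, and Sst in 1 barcode of each. Among barcodes of 1% or more the Chgb-led share was 42.9% in both libraries, 6 of 14 and 15 of 35.

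**Figure D1:**
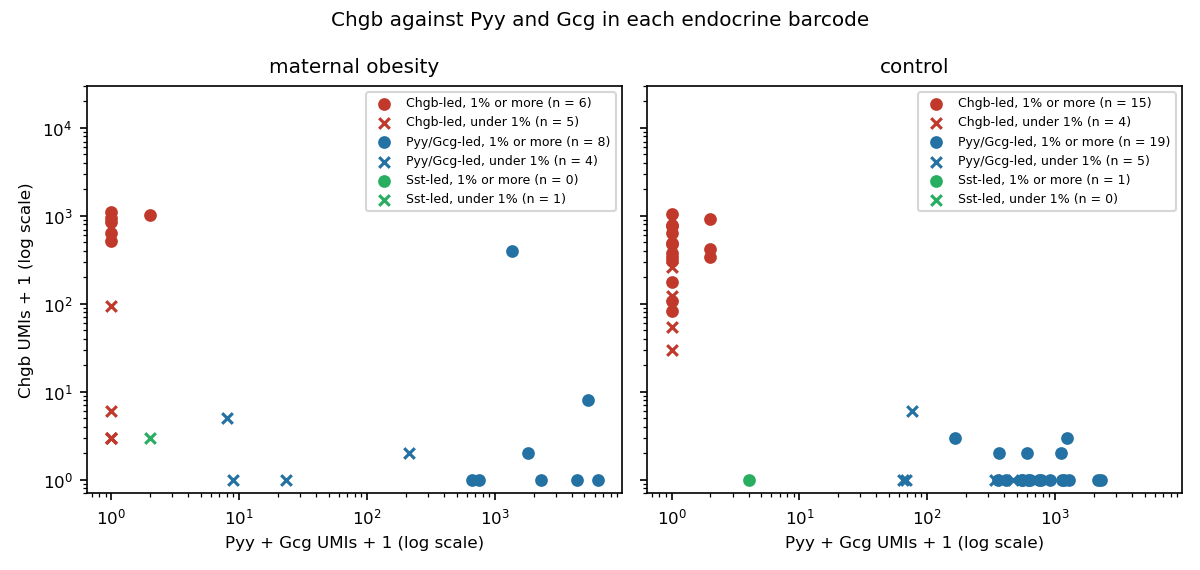
Chgb UMIs plus 1 against the sum of Pyy and Gcg UMIs plus 1 in each endocrine barcode, on log scales, with maternal obesity on the left and control on the right; filled points have 1% or more of their UMIs in the 6 rule genes and crosses have less. Most points lie near one axis or the other, and 1 maternal obesity barcode, with 396 Chgb and 1360 Gcg UMIs, has at least 20 UMIs on both.

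The kinds hardly overlapped. In the 6 Chgb-led barcodes of 1% or more in maternal obesity, Chgb ranged from 515 to 1118 UMIs (median 892.5) while Gcg was at 0 and Pyy reached at most 1. In the 15 such control barcodes Chgb ranged from 81 to 1059 UMIs (median 422), with at most 1 UMI of Gcg and of Pyy. At least 20 UMIs of both Chgb and Pyy plus Gcg were seen in 1 maternal obesity barcode and in 0 control barcodes. That barcode, with 1360 Gcg, 396 Chgb and 158 Tac1 UMIs, was the one with 50% haemoglobin. The Sst-led barcode of control had 306 Sst and 25 Resp18 UMIs; that of maternal obesity had 3 Sst UMIs and was one of the barcodes with neuron markers.

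**Figure D2:**
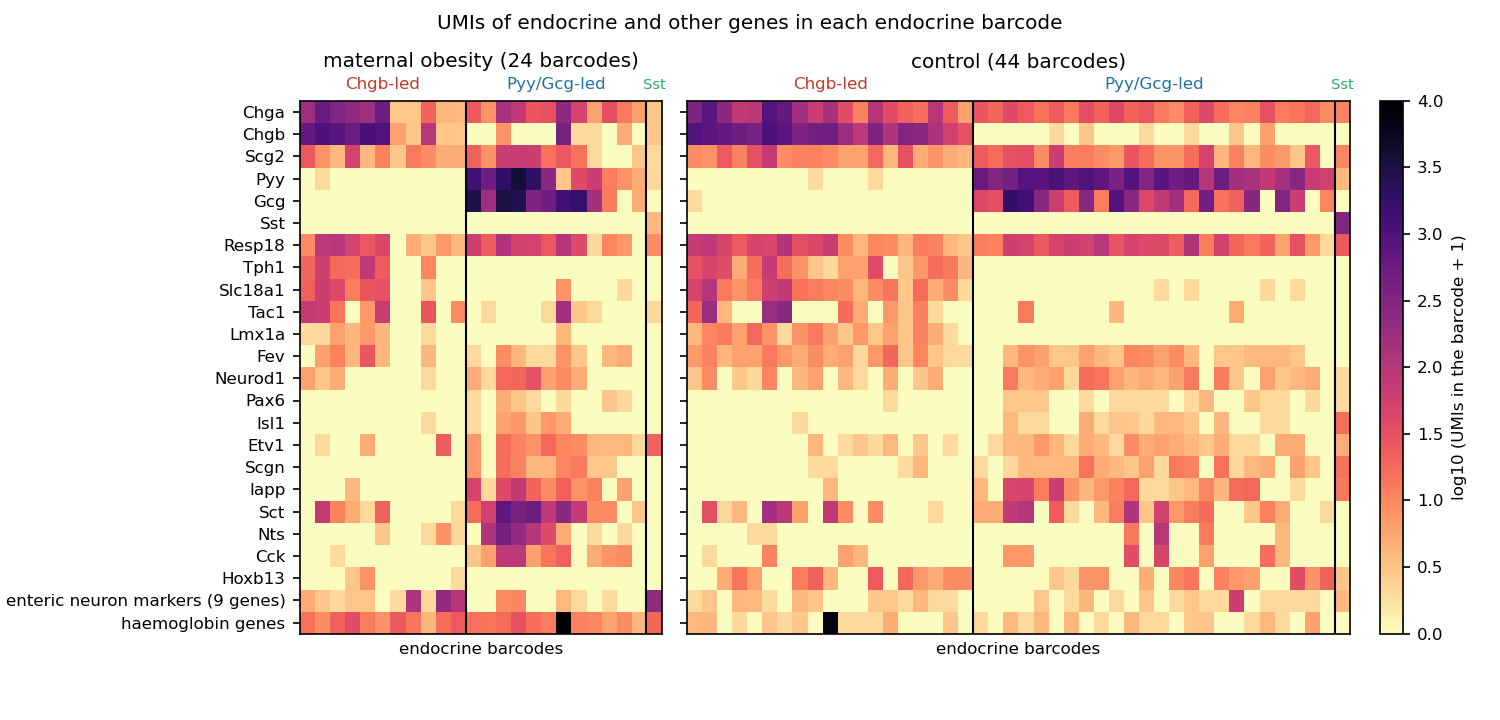
UMIs of endocrine, regional, neuron-marker and haemoglobin genes (rows) in each of the 24 maternal obesity and 44 control endocrine barcodes (columns), as log10 of the UMIs plus 1 and ordered by kind and by the share of UMIs in the 6 rule genes. Tph1, Slc18a1 and Lmx1a lie mainly in the Chgb-led columns, and Iapp, Isl1, Pax6 and Scgn mainly in the Pyy/Gcg-led columns, in both libraries.

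Other genes also differed between the kinds. Of 5372 genes with at least 20 UMIs in the barcodes of these kinds of 1% or more, 116 (2.16%) were 2-fold or more higher in Chgb-led than in Pyy/Gcg-led barcodes in each library, and 130 (2.42%) were 2-fold or more lower. Of the 10 enterochromaffin and amine genes, 6 were on the higher side and 0 on the lower. Tph1 had 212 UMIs in Chgb-led and 0 in Pyy/Gcg-led barcodes of maternal obesity, and 271 and 0 in control. Slc18a1, the transporter that loads amines into granules, had 191 and 7 UMIs in maternal obesity and 384 and 2 in control. Ddc, the enzyme of the last step of serotonin synthesis, had 80 and 6 UMIs in maternal obesity and 110 and 0 in control. Lmx1a, a transcription factor of enterochromaffin cells in mouse, was seen in 6 of 6 and 1 of 8 barcodes in maternal obesity, and in 15 of 15 and 0 of 19 in control. Ttr, the thyroid hormone carrier, had 139 and 17 UMIs in maternal obesity and 228 and 6 in control. Tac1, which encodes substance P, ranged from 0 to 72 UMIs in the Chgb-led barcodes of maternal obesity and from 0 to 258 in those of control. The Pyy/Gcg-led barcodes held 162 Tac1 UMIs in maternal obesity, 158 of them in the haemoglobin-rich barcode, and 18 in control.

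The Pyy/Gcg-led barcodes carried peptide and potassium channel genes that are also known from L cells and pancreatic islets. Of the 14 hormone and peptide genes outside the rule, 5 were lower in Chgb-led barcodes, namely Cck, Gast, Iapp, Nts and Ppy, and 1, Tph1, was higher. Over all genes, 2.42% were 2-fold or more lower in Chgb-led barcodes in each library and 2.16% higher. Iapp, islet amyloid polypeptide, had 3 UMIs in Chgb-led and 217 in Pyy/Gcg-led barcodes of maternal obesity, and 3 and 262 in control. Qpct, which cyclises the ends of peptide hormones, had 0 and 115 UMIs in maternal obesity and 0 and 60 in control. Abcc8, the sulphonylurea receptor of ATP-gated potassium channels, had 0 and 12 UMIs in maternal obesity and 0 and 22 in control. Slc30a8, a zinc transporter of secretory granules, had 2 and 31 UMIs in maternal obesity and 4 and 47 in control. Of 8 excitability and ion channel genes, 3 were lower in Chgb-led barcodes (Abcc8, Gria2 and Kcnk3) and 0 higher.

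Some transcription factors differed between the kinds. Of 20 endocrine transcription factor genes, 5 were lower in Chgb-led barcodes, among them Etv1, Isl1, Pax6 and Pou3f4, and 1, Lmx1a, was higher. The shares of all genes were 2.42% lower and 2.16% higher. Isl1 had UMIs in 0 of 6 and 6 of 8 barcodes in maternal obesity, and in 1 of 15 and 12 of 19 in control. Pax6 had UMIs in 0 of 6 and 5 of 8 in maternal obesity, and in 1 of 15 and 11 of 19 in control. Fev, a factor of serotonin neurons, was common to both kinds, in 5 of 6 and 7 of 8 barcodes in maternal obesity and in 15 of 15 and 16 of 19 in control. Neurod1, which acts after Neurog3, was seen in 3 of 6 and 8 of 8 barcodes in maternal obesity, and in 10 of 15 and 15 of 19 in control.

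Against the rest of the epithelium, 236 of 7450 genes outside the rule (3.17%) were 4-fold or more higher in endocrine barcodes in each library. Since endocrine genes chose the barcodes, this is a description. The 236 included 30 of 43 granule, processing and exocytosis genes, 13 of 24 transcription factor genes, 11 of 16 channel genes, 9 of 14 hormone genes and 7 of 10 amine genes, but 0 of 25 unfolded protein response genes, 0 of 25 proliferation genes and 0 of 15 secretory lineage and Notch genes. Tph1 was 625-fold higher in maternal obesity and 655-fold in control. Cpe, which trims peptide hormones, was 117-fold and 156-fold higher, and Ptprn, a granule membrane protein, 322-fold and 294-fold. Scn3a, a sodium channel subunit, was 323-fold and 141-fold higher, and Slc30a8, with 0 UMIs in the other epithelium of either library, was at least 697-fold and at least 1209-fold higher. Sct and Nts were shared with other epithelium. Endocrine barcodes held 99.6% of epithelial Gcg UMIs in maternal obesity and 99.3% in control, but 41.3% and 29.7% of Sct UMIs and 52.2% and 3.55% of Nts UMIs.

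Gcg UMIs also occurred at low shares outside the endocrine barcodes. They were seen in 45.8% of endocrine barcodes, 3.12% of other epithelial barcodes and 3.88% of fibroblast barcodes (20 or more Col1a1 and Col3a1 UMIs) in maternal obesity, where fibroblasts had a median of 9614.5 UMIs. In control the shares were 52.3% of endocrine barcodes, 1.28% of other epithelial barcodes and 1.40% of fibroblast barcodes, whose median was 10180 UMIs. For Gcg, the share in other epithelial barcodes was thus close to the fibroblast share. Pyy was alike, at 3.12% and 3.40% in maternal obesity and 2.02% and 1.96% in control. Chga was higher in other epithelial than in fibroblast barcodes, at 3.50% and 1.59% in maternal obesity and 2.02% and 0.561% in control. Other epithelial barcodes were deeper, with medians of 21694 and 14528.5 UMIs. The source of these UMIs was not tested.

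Between the libraries, Gcg, Sct, Nts and Cck were higher in the endocrine barcodes of maternal obesity, while Pyy and Iapp were level. Summed over all endocrine barcodes, Gcg was at 17924 CPM in maternal obesity and 7547 CPM in control, a ratio of 2.37 (2.31 to 2.45). Pyy was at 13134 and 13492 CPM, a ratio of 0.973 (0.947 to 1.00). Sct, which encodes secretin, was at 3039 CPM in maternal obesity and 958 CPM in control (ratio 3.17, 2.93 to 3.44, against 2.22 in other epithelial barcodes). Nts, which encodes neurotensin, was at 1205 and 141 CPM (8.55, 7.06 to 10.4), with 41.2% of its UMIs in 1 barcode. Cck, which encodes cholecystokinin, was at 311 and 155 CPM (2.01, 1.61 to 2.50), but at 232 and 157 CPM without the barcodes with neuron markers. Of those barcodes, the Pyy/Gcg-led one with 9 neuron-marker UMIs held 85 of the 231 maternal obesity Cck UMIs. The other 4 of maternal obesity held 0. Iapp was at 316 and 324 CPM (0.977, 0.818 to 1.17). Across all 7463 genes with at least 20 UMIs, 428 (5.73%) were 2-fold or more higher in maternal obesity and 496 (6.65%) 2-fold or more lower, with a median log2 ratio of -0.08. Without the 5 and 1 barcodes with neuron markers, 317 of 7075 genes (4.48%) were higher and 663 (9.37%) lower. Of the 17 hormone and peptide genes with at least 20 UMIs, 6 were higher, 3 were lower and the median was -0.03. These counts are a description, since the list holds Gcg, Pyy and Sst, which chose the barcodes. In barcodes of 1% or more, 264 of 5448 genes (4.85%) were higher and 435 (7.98%) lower, and of 17 hormone and peptide genes 8 were higher and 3 lower, with a median of 0.46.

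Within the Pyy/Gcg-led barcodes of 1% or more, Sct, Nts and Cck were higher in maternal obesity. So were Gcg and Pyy, but these genes chose the barcodes, their kind and the 1% limit, and their levels are a description. There, 175 of 3492 genes (5.01%) were 2-fold or more higher and 464 (13.3%) 2-fold or more lower. Gcg ranged from 159 to 3369 UMIs (median 1563.5) in the 8 maternal obesity barcodes and from 11 to 1853 (median 77) in the 19 control barcodes. Pyy ranged from 2 to 3666 UMIs (median 915.5) in maternal obesity and from 99 to 1048 (median 572) in control. The ranges overlap for both genes. Sct ranged from 16 to 742 UMIs (median 169.5) in maternal obesity and from 0 to 115 (median 4) in control. Nts had UMIs in 6 of 8 barcodes (median 68.5, highest 419) in maternal obesity and in 3 of 19 (highest 93) in control, and Cck in 7 of 8 (highest 85) and 5 of 19 (highest 45). The summed ratios in this kind were 3.29 (3.19 to 3.39) for Gcg, 1.34 (1.31 to 1.38) for Pyy, 7.51 (6.77 to 8.35) for Sct, 11.6 (9.52 to 14.2) for Nts and 3.38 (2.64 to 4.35) for Cck. Without the haemoglobin-rich maternal obesity barcode they were 3.69, 1.68, 8.23, 14.4 and 3.81.

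Gcg exceeded Pyy in 5 of the 8 maternal obesity barcodes (62.5%, 24.5 to 91.5%) and in 5 of the 19 control barcodes (26.3%, 9.15 to 51.2%). Gcg was a median of 64.5% of the sum of Gcg and Pyy UMIs in maternal obesity (14.7 to 99.9%) and 12.7% in control (1.48 to 81.9%). UMIs from poly-T priming count molecules and are not scaled to gene length.

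**Figure D3:**
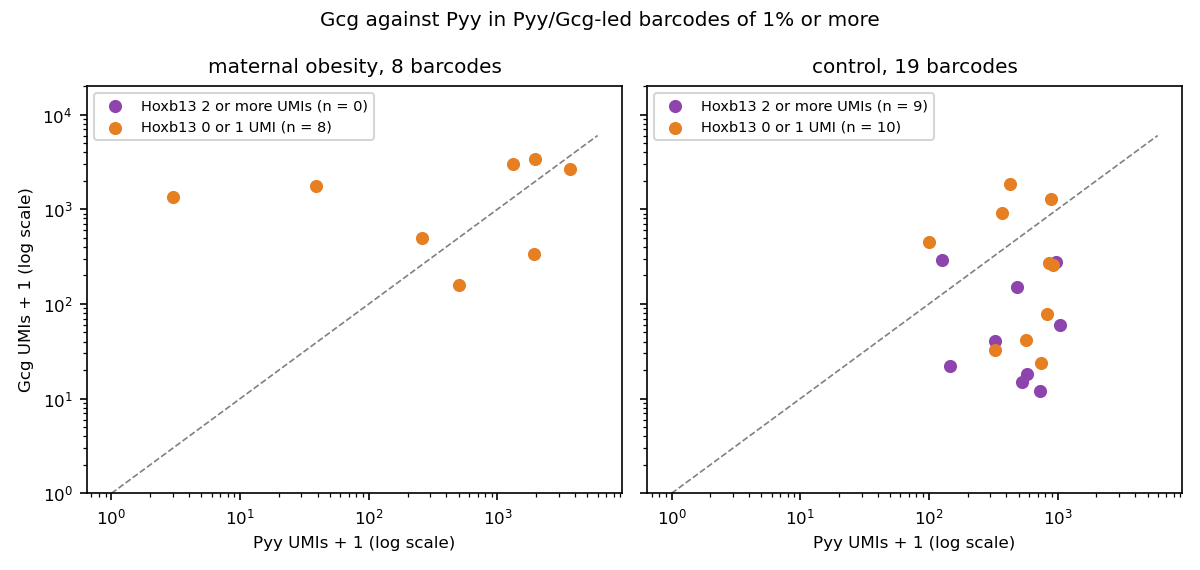
Gcg UMIs plus 1 against Pyy UMIs plus 1 in each Pyy/Gcg-led barcode of 1% or more, on log scales, with 8 maternal obesity barcodes on the left and 19 control barcodes on the right; the dashed line marks equal counts and colour marks Hoxb13 UMIs. Points lie above the line in 5 of 8 and in 5 of 19 barcodes, and 9 control barcodes but 0 maternal obesity barcodes have 2 or more Hoxb13 UMIs.

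Summed over the Chgb-led barcodes of 1% or more, Sct and Cck went the other way. In these, Sct was at 712 CPM in maternal obesity and 1679 CPM in control (ratio 0.424, 0.339 to 0.527, and 0.507 without the haemoglobin-rich control barcode), Cck had 1 UMI in maternal obesity and 19 in control, and Tac1 was at 1450 and 2981 CPM (0.486, 0.416 to 0.568). Medians per barcode went the opposite way to these sums for Sct (7 UMIs in maternal obesity and 3 in control) and Tac1 (36.5 and 3). The highest barcode held 72 Sct UMIs in maternal obesity and 150 in control, and 72 and 258 Tac1 UMIs. Of the 19 control Cck UMIs, 10 lay in 1 barcode. Summed Tph1 was at 1410 and 1213 CPM (1.16, 0.967 to 1.40) and Chgb at 33793 and 32785 CPM (1.03, 0.994 to 1.07). Chga was at 12938 and 15927 CPM (0.812, 0.768 to 0.859).

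A gene of position along the gut differed between the same barcodes. Hoxb13, a homeobox gene of the posterior hindgut, had 2 or more UMIs in 2 of 24 endocrine barcodes (8.33%, 1.03 to 27%) in maternal obesity and in 25 of 44 (56.8%, 41.0 to 71.7%) in control. In other epithelial barcodes the shares were 7.63% of 1573 and 29.5% of 3214. Among control Pyy/Gcg-led barcodes of 1% or more, the 9 with Hoxb13 had a summed 5642 CPM of Gcg, 302 CPM of Sct and no UMI of Nts or Cck. The 10 control barcodes with 0 or 1 Hoxb13 UMI had 38129 CPM of Gcg, 2819 CPM of Sct, 849 CPM of Nts and 696 CPM of Cck. The split was made after seeing the data, and median total UMIs were 13386 and 13405.

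With the comparison limited to Pyy/Gcg-led barcodes with 0 or 1 Hoxb13 UMI, 8 in maternal obesity and 10 in control, the ratios of Gcg, Sct, Nts, Cck and Pyy were smaller but stayed above 1. Gcg was at 68544 CPM in maternal obesity and 38129 CPM in control (ratio 1.80, 1.74 to 1.86), and Sct at 11109 and 2819 CPM (3.94, 3.53 to 4.40). Nts was at 4596 and 849 CPM (5.41, 4.45 to 6.63), Cck at 1099 and 696 CPM (1.58, 1.24 to 2.04) and Pyy at 50391 and 44111 CPM (1.14, 1.11 to 1.18). Iapp was at a ratio of 1.04 (0.838 to 1.29). Among control Chgb-led barcodes, Tac1 had 5 UMIs in the 8 with Hoxb13 and 661 in the 7 without. The labels do not say which stretch of colon was dissected, so position along the colon and maternal obesity cannot be told apart.

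Of 10 amine and enterochromaffin genes with at least 20 UMIs, 0 were 2-fold or more higher in maternal obesity and 2 lower, against 5.73% and 6.65% of all genes, with a median log2 ratio of -0.58 over all members and -0.18 in barcodes of 1% or more. The 2 were Lmx1a and Reg4. Reg4 had 10 UMIs in 3 maternal obesity barcodes and 39 in 4 control barcodes, with 63.3% of them in 1 barcode, and in other epithelium it was at 19.6 CPM in maternal obesity and 0.847 CPM in control. Lmx1a had 23 UMIs in 8 of 24 maternal obesity barcodes and 109 UMIs in 18 of 44 control barcodes (ratio 0.244, 0.148 to 0.385), and the ratio was 0.300 (0.173 to 0.495) within Chgb-led barcodes. Slc18a1 was at 271 CPM in maternal obesity and 486 CPM in control (0.557, 0.468 to 0.661), and at 0.739 (0.618 to 0.882) within Chgb-led barcodes. Tph1 was at 297 and 359 CPM (0.829, 0.695 to 0.989) over all members, but at 619 and 509 CPM (1.22, 1.01 to 1.46) in barcodes of 1% or more, where its direction turned.

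Among endocrine transcription factors, 1 of 24 was 2-fold or more higher in maternal obesity and 6 were lower, with a median of -0.37, against 5.73% and 6.65% of all genes. Without the barcodes with neuron markers 0 of 23 were higher and 7 lower, with a median of -0.49, against 4.48% and 9.37% of all genes. In barcodes of 1% or more, 0 of 20 were higher and 4 lower. Fev was at 109 CPM in maternal obesity and 215 CPM in control (0.506, 0.385 to 0.661). To set shares at equal depth, barcodes were thinned to 3000 UMIs, which left 23 in maternal obesity and 43 in control. Lmx1a was then seen in 13% (2.78 to 33.6%) and 30.2% (17.2 to 46.1%), and Nts in 30.4% (13.2 to 52.9%) and 6.98% (1.46 to 19.1%), so the intervals overlap for each gene; unthinned, the shares were 33.3 and 40.9% for Lmx1a and 50 and 13.6% for Nts. Etv1 was at 175 and 95.5 CPM (1.83, 1.38 to 2.45), but its ratio was 1.28 (0.926 to 1.77) without the barcodes with neuron markers. Neurod1 was at 135 and 184 CPM (0.732, 0.564 to 0.946), but its ratio was 1.12 in barcodes of 1% or more.

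**Figure D4:**
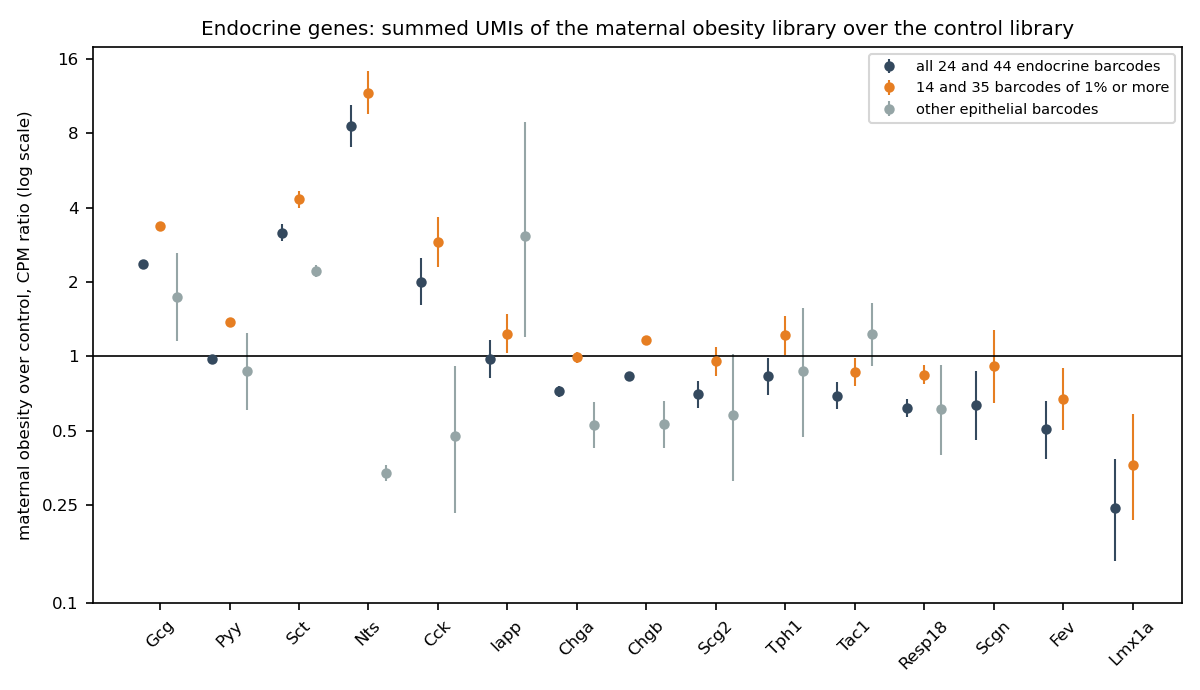
Ratio of maternal obesity over control, on a log scale, for 15 endocrine genes, from summed UMIs as CPM with 95% counting intervals. Dark points are all 24 and 44 endocrine barcodes, orange points the 14 and 35 of 1% or more, and grey points other epithelial barcodes (left out where a library had under 5 UMIs); Gcg, Sct, Nts and Cck lie above 1 and Fev and Lmx1a below 1 in both endocrine sets.

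Granule, processing and exocytosis genes were on balance lower when all members were used. Of 46, 3 were 2-fold or more higher and 7 lower, with a median of -0.50, against 5.73% and 6.65% of all genes. The median was -0.25 in barcodes of 1% or more and -0.61 in other epithelial barcodes. Of the 3 that were higher, Prph and Stmn2 are also neuron genes. Prph had 0 UMIs in the 14 maternal obesity barcodes of 1% or more and 25 in the 35 control barcodes. Stmn2 had 6 and 42, and the 42 lay in 1 control barcode. Without the barcodes with neuron markers, Stmn2 had 6 UMIs in maternal obesity and 0 in control. Scg5, the chaperone of the prohormone convertase Pcsk2, was at 74 CPM in maternal obesity and 185 CPM in control (ratio 0.400, 0.289 to 0.546), and at 0.469 in barcodes of 1% or more. Vgf, a granule peptide precursor, was at 22.9 and 58.2 CPM (0.393, 0.212 to 0.693). Chga was at 3517 and 4874 CPM (0.722) over all members and at a ratio of 0.990 (0.942 to 1.04) in barcodes of 1% or more. Pcsk1, the convertase that releases GLP-1, was at 68.6 and 47.7 CPM (1.44, 0.934 to 2.22) over all members and at a ratio of 2.16 (1.33 to 3.54) in barcodes of 1% or more.

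Receptors and channels had few UMIs. Of 18 nutrient and hormone receptors, 2 were higher, Ret and Slc5a1, and 5 lower, Agtr1a, Avpr1b, Gfra3, Slc15a1 and Sstr1, with a median of -0.19; Erbb2 lay at a ratio of 0.489. Without the barcodes with neuron markers, 0 of 16 were higher and 7 lower, with a median of -0.57, against 4.48% and 9.37% of all genes. Slc5a1 then stood at 1.95 (1.03 to 3.77). Ret stood at 2.47 (0.838 to 8.14), on too few UMIs to be counted among the 16. Ret is itself 1 of the neuron markers that chose the barcodes left out, so its loss of UMIs there was built in. Avpr1b, a vasopressin receptor, had 3 UMIs in maternal obesity and 39 in control, and Agtr1a, an angiotensin receptor, 2 and 25. Gfra3, the artemin receptor, had 20 UMIs in 7 of 24 barcodes and 63 UMIs in 30 of 44 (0.367, 0.210 to 0.615). Sstr1, a somatostatin receptor, had 9 and 45 UMIs. Of 16 channel genes, 3 were higher and 3 lower, with a median of -0.30. Over all members, 5.73% of all genes were higher and 6.65% lower. Without the barcodes with neuron markers, 1 of 14 was higher and 4 lower. Kcnk3, a two-pore potassium channel, had 6 UMIs in maternal obesity and 47 in control.

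Proliferation genes were higher in maternal obesity over all members, at 2572 CPM against 1188 CPM in control. Of 25, 14 were 2-fold or more higher and 1 lower, with a median of 1.04, against 5.73% and 6.65% of all genes. Plk1, Ube2c, Cks2 and Cenpe, which act in mitosis, were among the named genes, at ratios of 4.78, 3.37, 3.22 and 3.47. Barcodes with 1000 CPM or more numbered 8 of 24 (33.3%, 15.6 to 55.3%) in maternal obesity and 11 of 44 (25%, 13.2 to 40.3%) in control, and held 96.0% and 90.5% of the proliferation UMIs. These barcodes were deep, with median totals of 51393 and 27002 UMIs against 13605 and 12097 in the rest, and had a median of 0.136% and 1.90% of UMIs in the 6 endocrine genes. Among barcodes of 1% or more, 2 of 14 (14.3%) and 7 of 35 (20%) reached 1000 CPM, and the pooled levels were 1069 and 768 CPM. In the Pyy/Gcg-led barcodes of 1% or more the sums were 292 and 390 CPM. In the Chgb-led ones they were 2062 and 958 CPM, with 240 of the 310 maternal obesity UMIs in 1 barcode. Between the kinds, 6 of 13 proliferation genes were 2-fold or more higher in Chgb-led barcodes in each library and 0 lower. The shares of all genes were 2.16% and 2.42%. The part that depth and low endocrine content played in the result over all members was not tested.

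**Figure D5:**
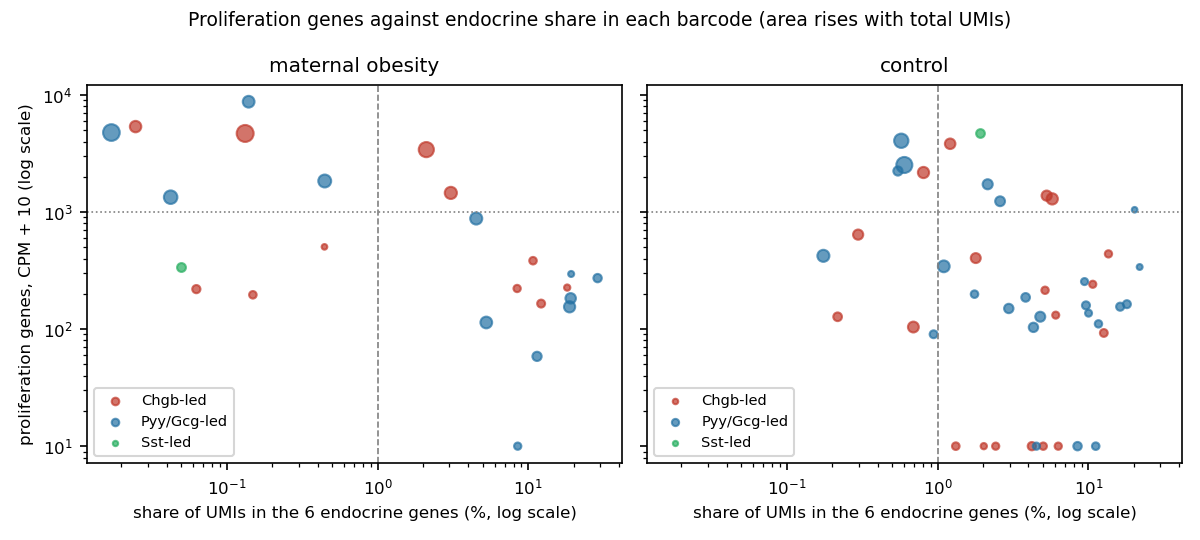
Proliferation genes, as CPM plus 10, against the share of UMIs in the 6 rule genes in each endocrine barcode, on log scales, with maternal obesity on the left and control on the right; colour marks the kind, point area rises with total UMIs, the dotted line is 1000 CPM and the dashed line 1%. Of the barcodes above the dotted line, 6 of 8 in maternal obesity and 4 of 11 in control lie left of 1%.

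The genes named for the size of their difference were then set beside the other epithelial barcodes, where the 12 lower genes were also lower in maternal obesity. Sftpd, a secreted lectin, had 0 UMIs in maternal obesity and 260 in control, at least 75.0-fold lower against a floor of 3 UMIs per library, and its ratio in other epithelial barcodes was 0.11. Hoxb13 had 10 and 251 UMIs, and a ratio of 0.18 in other epithelium. Anxa1, an annexin, had 26 and 186 UMIs, with a ratio of 0.21 in other epithelium. B3gnt7, a glycosyltransferase, had 22 and 227 UMIs (0.24 in other epithelium), and Aqp3, a water and glycerol channel, 12 and 122 (0.14). RT1-A1, an MHC class I gene with near-identical copies that may share its reads, had 5 and 56 (0.12). Thbs4, Gadd45g, Gprc5a, Abo3, Plaat3 and Prss32 completed the 12 lower genes, with ratios of 0.19 to 0.56 in other epithelium. On the higher side, Akr1b8, an aldo-keto reductase with close paralogues, had 57 and 1 UMIs, against a ratio of 21.3 in other epithelium. Mep1a, a brush border protease, had 73 and 10 UMIs (ratio 8.44, 4.34 to 18.3, and 2.27 in other epithelium). Lgals2, a galectin, was at 1116 and 330 CPM (3.39, and 2.28 in other epithelium). Gpx2, Prkg2 and Snrpa stood at 2.70, 4.94 and 3.88, against 1.48, 2.54 and 2.31 in other epithelium. Plk1, Ube2c, Cks2 and Cenpe stood at 1.19, 1.16, 1.21 and 1.12 in other epithelium. Sct and Gcg completed the 12 higher genes. In other epithelium Sct stood at 2.22 (2.09 to 2.35) and Gcg at 1.74 (1.16 to 2.63), the latter on 58 and 45 UMIs.

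The remaining lists are given as medians of log2 ratios over members with at least 20 UMIs. Over all endocrine barcodes, 5.73% of all genes were 2-fold or more higher and 6.65% lower. Imprinted growth genes had a median of 0.70 (4 of 11 higher, 0 lower). Igf2 had 341 UMIs in maternal obesity and 151 in control, and Nnat had 228 and 66, but Nnat's ratio was 0.831 without the barcodes with neuron markers. Unfolded protein response genes were at -0.35 (0 of 25 past 2-fold in either direction), and immediate early and dissociation genes at -0.56 (1 of 20 higher, 4 lower). Interferon and inflammatory genes were at -1.38 (1 of 9 higher, 5 lower). The exception was Ccl20, a chemokine, with 114 and 26 UMIs. The interferon list was at -0.55 in barcodes of 1% or more (1 of 7 higher, 3 lower) and at -0.34 in other epithelium. Secretory lineage and Notch genes were at -0.46 (1 of 15 higher, 3 lower) and goblet markers at -0.56 (0 of 8 higher, 3 lower), where other epithelium was at -0.20 and -0.93. Without the barcodes with neuron markers these lists were at -0.87 (0 of 12 higher, 6 lower) and -1.52 (0 of 7 higher, 6 lower), against 4.48% and 9.37% of all genes. In barcodes of 1% or more they were at -1.02 (1 of 11 higher, 7 lower) and -1.23 (0 of 7 higher, 5 lower), against 4.85% and 7.98%. Integrin and adhesion genes were at -0.20 (0 of 21 higher, 2 lower) and basement membrane and matrix genes at -0.15 (0 of 6 higher, 1 lower). Lipid and energy genes were at 0.03 (2 of 20 higher, 1 lower), hindgut and region genes at -0.01 (1 of 10 higher, 3 lower) and absorptive markers at -0.15 (1 of 6 higher, 1 lower). Enteric neuron markers were at 2.77 over all members (11 of 12 higher, 0 lower) and at -1.55 in barcodes of 1% or more (0 of 6 higher, 4 lower).

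Barcodes with Neurog3, the factor that starts the endocrine lineage, fell outside the rule. Neurog3 had 2 or more UMIs in 11 epithelial barcodes of maternal obesity (2 to 79, median 13) and in 15 of control (2 to 70, median 10), and 0 of these were members. Of these, 0 in maternal obesity and 1 in control had 2 or more Chga UMIs. Ghrl, which encodes ghrelin, had 2 or more UMIs in 3 epithelial barcodes of maternal obesity, at most 5 in any, and in 15 of control, with up to 451 in 1 barcode; 1 of the 15 was a member. Gip, the hormone of K cells in the upper intestine, had no UMI in any member.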

How the data were processed

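The authors deposited 1 matrix of UMI counts per library (genes by cell barcodes), made from 10x reads with Cell Ranger. The submitters' processing notes name version 2.1.1 and the matrix file headers 6.1.2; neither names a genome build. The maternal obesity library held 9714 barcodes and 120811946 UMIs, the control library 8903 and 103013814, with medians of 9142 and 8599 UMIs per barcode.

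Members were selected as stated above, and their counts were summed per library and divided by the summed total (CPM), with Python 3.11.15, NumPy 2.4.6, SciPy 1.17.1 and pandas 2.3.3. Ratios have exact conditional binomial 95% intervals, shares Clopper-Pearson intervals, and log2 ratios add 0.5 UMI to both sums; the interval code was tested on simulated data. Genes needed 20 UMIs over both libraries. With 1 library per group no test was made, and the intervals cover counting error, not the spread between animals. Doublets were called with Scrublet (scanpy 1.11.5), which marked 110 of 7236 barcodes (1.52%) in maternal obesity and 2 of 6879 (0.0291%) in control. The expected rates were 5.79% and 5.50%, so the call fell short in maternal obesity and did not work in control. It marked 0 members, those with neuron markers included, which does not show that members are free of doublets. Doublets among members are otherwise untreated.

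Genes named between libraries were the 12 higher and 12 lower ones whose interval bound lay farthest from 1, among genes with at least 50 UMIs, seen in at least 5 barcodes and with at most 25% of UMIs in 1 barcode; against other epithelium, the 25 largest ratios in both libraries could be named. Genes of the endocrine lists could all be named. The members and the lists were chosen with earlier results of these data known. Of 653 listed symbols, 621 were in the files. Some list members are not reported here. Kinds of barcode, the 1% limit, the haemoglobin limit of 10% and the Hoxb13 split were added after seeing the data.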

Additional observations from a re-analysis of the deposited data

Results flagged for a closer look

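In 5 genes of the endocrine lists maternal obesity was 2-fold or more above control in endocrine barcodes and 2-fold or more below it in other epithelial barcodes. The difference between the ratios was not tested, since each group has 1 library. Nts had a ratio of 8.55 in endocrine barcodes and 0.337 in other epithelial barcodes, where it had 820 UMIs in maternal obesity and 3283 in control. Cck had a ratio of 2.01 in endocrine barcodes and 0.474 (0.231 to 0.912) in other epithelial barcodes, on 13 and 37 UMIs. Without the barcodes with neuron markers, Cck was at 232 and 157 CPM in endocrine barcodes, under 2-fold. The removed Cck UMIs of maternal obesity, 85 of 231, lay in 1 Pyy/Gcg-led barcode with 9 neuron-marker UMIs. Scn3b, a sodium channel subunit, had a ratio of 2.12 (1.00 to 4.70) in endocrine barcodes and 0.421 (0.121 to 1.20) in other epithelial barcodes, on 5 and 16 UMIs. Prph and Stmn2, both also neuron genes, had ratios of 9.76 and 8.70 in endocrine barcodes and 0.395 and 0.426 in other epithelial barcodes. In endocrine barcodes of 1% or more, Prph had 0 UMIs in maternal obesity and 25 in control, and Stmn2 had 6 and 42. The 42 control Stmn2 UMIs lay in 1 barcode. Without the barcodes with neuron markers, Stmn2 had 6 UMIs in maternal obesity and 0 in control.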

How the results depend on the processing

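Over 67 results and 17 alternatives, 641 of 833 values stayed within the main result's interval or within 1.5 times the count. Another 188 moved and 4 values past 2-fold changed sign. The interval covered counting error for shares and single genes. For medians over genes it came from the spread of the genes' ratios, which is wide in short lists. Genes near a ratio of 1 changed sign more often: Pyy kept its sign in 7 of 15 settings, Iapp in 9 of 15, Chgb in 11 of 16 and Tph1 in 11 of 14. With 4 of the 6 genes required, the endocrine share was 0.564% in maternal obesity and 0.706% in control. Every Chgb-led barcode met only 3 of the 6 genes, so this setting removed that whole kind. Pyy/Gcg-led shares were then 100% and 95.7%, 229 genes were higher, and medians were 1.66 (hormones), -0.19 (granule) and 0.25 (proliferation). Weighing barcodes equally gave 665 higher genes and -0.0051 for transcription factors. A 50-UMI minimum gave 133 higher and 199 lower genes, and a 1-UMI minimum 2211 and 2124. Without each gene's top barcode, 280 genes were higher and proliferation stood at 0.77. Without barcodes above 60000 UMIs the granule median was -0.24. In barcodes of 1% or more, the maternal obesity share was 0.877%, 264 genes were higher and proliferation was at 0.79. In Pyy/Gcg-led barcodes, 175 genes were higher, medians were 1.72 (hormones), -0.12 (granule) and 0.27 (transcription factors), and Cenpe stood at -1.27. In Chgb-led barcodes, 200 genes were higher and 213 lower, hormones were at -1.14, the interferon list at 0.10, Sct at -1.23 and Cck at -3.13. Apart from the loss of the Chgb-led kind when 4 genes were required, and the smaller number of barcodes or genes in each, the cause of these shifts was not tested. Removing called doublets removed no member. Leaving out a library was not run, since a group would have none. No paired analysis was possible because each group has 1 library and they share no replicate number. Depth limits receptors, channels and transcription factors, many with under 50 UMIs per library.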
